A study of Drosophila melanogaster with 3 samples.

Results

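Of the 4482 optimal Ets21C-eGFP ChIP-seq peaks on the main nuclear arms of Drosophila melanogaster, 2048 (45.7%) stood high in all 3 biological replicates, and these shared high peaks are described here. A peak was kept when its summit lay within 100 bp of a summit in the top list of every replicate, where a top list holds the 4505 peaks of highest signal in that replicate's own list. The optimal list is the authors' thresholded set of reproducible peaks, also 4505 long, of which 23 peaks were mitochondrial and were not counted. All libraries belong to 1 group: whole white prepupae of mixed sex from the strain labelled d.ets6-GFP, a transgenic line that carries Ets21C with GFP at its C-terminus, precipitated with an antibody against GFP according to the sample descriptions (the antibody field names Ets21C itself). The animals were whole organisms, so binding in one tissue cannot be told apart from binding in many, and what drives the transgene is not stated in the labels. No untreated or untagged library was analysed here, and all peaks come from the tagged line. The measured heights chose the peaks, so their heights and ranks are given as a description, with no test. Replicate 1 stood apart from the other two: its top list held 2930 of the optimal peaks on the arms, against 3589 for replicate 2 and 3490 for replicate 3, and results on places, arms, words, composition, genes and spacing are also given with the peaks chosen on replicates 2 and 3 alone (for composition, promoter positions, genes and spacing this was added after seeing the data).

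Ets21C is a transcription factor of the ETS family, whose members share a DNA-binding domain that recognises a short core of G and A. In flies it is known as a stress-inducible factor acting with JNK signalling and AP-1, the Fos and Jun dimer, in wounding, regeneration and tumour models. White prepupae are animals at the onset of metamorphosis, when a pulse of the steroid hormone ecdysone switches larval tissues to new programmes. In ChIP-seq, DNA that crosslinks to a protein directly or through other chromatin proteins is recovered, so a summit marks where recovered fragments pile up and need not carry the factor's own recognition sequence.

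The sequences under the highest shared peaks are shown first, because the composition of the summit recurs in the results. Each is 101 bases centred on the summit, from the forward strand of the RefSeq Release 6 assembly (dm6), with runs of 6 or more A or T in capitals. They are the 4 promoter, 2 intronic and 2 intergenic peaks of highest lowest-height (the lowest of a peak's 3 heights) among the sequences that could be shown here and overlap no annotated UTR.
CG14100 promoter: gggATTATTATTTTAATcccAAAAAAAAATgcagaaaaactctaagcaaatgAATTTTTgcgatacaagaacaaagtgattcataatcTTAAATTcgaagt
Art3 and mRpS10 promoter: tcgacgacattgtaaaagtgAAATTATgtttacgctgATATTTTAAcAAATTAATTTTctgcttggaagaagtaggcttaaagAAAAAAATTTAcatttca
larp promoter: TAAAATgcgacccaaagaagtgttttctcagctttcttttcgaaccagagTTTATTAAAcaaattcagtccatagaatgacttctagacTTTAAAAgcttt
CenG1A and mRpS23 promoter: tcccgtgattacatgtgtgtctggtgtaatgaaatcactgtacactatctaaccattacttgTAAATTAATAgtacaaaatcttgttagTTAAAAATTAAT
ush intron: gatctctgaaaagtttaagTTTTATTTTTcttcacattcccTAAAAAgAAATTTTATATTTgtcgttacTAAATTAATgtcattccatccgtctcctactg
Lk6 intron: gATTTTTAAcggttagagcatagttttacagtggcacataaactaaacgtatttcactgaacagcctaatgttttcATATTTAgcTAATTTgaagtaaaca
intergenic, nearest start site CG31668: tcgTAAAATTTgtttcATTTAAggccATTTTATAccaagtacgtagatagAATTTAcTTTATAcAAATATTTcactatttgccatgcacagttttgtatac
intergenic, nearest start site CG43245: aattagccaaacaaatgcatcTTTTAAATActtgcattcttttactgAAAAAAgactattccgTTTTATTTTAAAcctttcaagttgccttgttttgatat
G and C made up 26.7% of the letters at CG14100, Art3 and CG43245, 27.7% near CG31668, 28.7% at CenG1A and in ush, 30.7% in Lk6 and 32.7% at larp. The windows lie at chr3L:19590559-19590659, chr3R:15229482-15229582, chr3R:28326547-28326647, chr2L:13835403-13835503, chr2L:481039-481139, chr3R:11761002-11761102, chr2L:2202369-2202469 and chr3L:10776520-10776620, in that order.

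A second set shows the 6-letter word GTGCAC, which was more frequent in the shared high peaks than in the other optimal peaks (the test is given below). These 4 shared peaks carry it between 50 and 100 bp from the summit. They are the highest such peaks among the sequences that could be shown here, again outside UTRs. Each is 201 bases centred on the summit, with the word in capitals.
CG11050 intron: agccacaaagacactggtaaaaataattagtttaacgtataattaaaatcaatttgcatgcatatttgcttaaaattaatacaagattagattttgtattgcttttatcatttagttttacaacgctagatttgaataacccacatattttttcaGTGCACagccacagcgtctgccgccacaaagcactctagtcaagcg
CG32264 intron: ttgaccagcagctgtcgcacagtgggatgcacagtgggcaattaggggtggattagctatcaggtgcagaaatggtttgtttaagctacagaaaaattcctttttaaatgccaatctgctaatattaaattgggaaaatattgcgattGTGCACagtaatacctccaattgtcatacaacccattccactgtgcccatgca
intergenic, upstream of kay: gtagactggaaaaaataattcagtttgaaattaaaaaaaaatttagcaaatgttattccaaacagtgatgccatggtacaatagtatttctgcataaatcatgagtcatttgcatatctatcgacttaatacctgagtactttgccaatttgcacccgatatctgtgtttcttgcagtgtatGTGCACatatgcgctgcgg
Rtnl1 promoter: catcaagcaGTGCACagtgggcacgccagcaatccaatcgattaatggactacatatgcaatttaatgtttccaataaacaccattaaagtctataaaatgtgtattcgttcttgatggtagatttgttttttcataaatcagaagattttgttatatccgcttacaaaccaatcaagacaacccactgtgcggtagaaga
The windows lie at chr2L:6612625-6612825, chr3L:3785124-3785324, chr3R:29763260-29763460 and chr2L:4997562-4997762 of dm6. In each the word stands to one side of the summit, which is the middle letter.

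The last set shows the DNA replication-related element (DRE), TATCGATA, the site of the promoter factor DREF, which was less frequent in the shared high peaks than in the others. These are 3 promoter members with the element within 50 bp of the summit. They are those of highest lowest-height among the sequences that could be shown here and overlap no annotated UTR. Each is 101 bases with the element in capitals.
Ptp61F promoter: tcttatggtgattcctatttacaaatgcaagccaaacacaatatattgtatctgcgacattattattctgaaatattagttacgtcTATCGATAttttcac
CG9992 promoter: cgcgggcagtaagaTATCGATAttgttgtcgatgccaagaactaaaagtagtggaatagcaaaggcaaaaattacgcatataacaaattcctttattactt
Sur-8 promoter: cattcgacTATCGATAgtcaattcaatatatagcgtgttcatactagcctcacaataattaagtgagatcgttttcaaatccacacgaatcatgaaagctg
The windows lie at chr3L:1350694-1350794, chrX:16384978-16385078 and chr3R:17401475-17401575 of dm6. Their pooled signals (the values of the optimal list, which the labels derive from all 3 replicates) were 151, 209 and 132, all under the median of 281 of the shared high peaks.

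Because signal is on a scale of its own in each replicate, a peak's height is given as its signal divided by the median signal of that replicate's top list, which was 40.5 in replicate 1, 62.7 in replicate 2 and 91.6 in replicate 3. A height of 1 is thus the middle of a top list. The shared high peaks had a median height of 1.75 in replicate 1, 1.37 in replicate 2 and 1.32 in replicate 3, with ranges of 0.615 to 30.7, 0.582 to 20.6 and 0.626 to 17.4. Replicate 1 gave the highest of the 3 heights for 1439 peaks (70.3%), and the lowest for 190 (9.28%). The median coefficient of variation (CV) of a peak's height over the 3 replicates was 22.3%. Summits of the replicate lists lay close to the optimal summit, at a median of 16 bp in replicate 1, 12 bp in replicate 2 and 9 bp in replicate 3. Of the 91 peaks on the arms among the first 100 by pooled signal, 89 (97.8%) qualified. The share fell to 418 of 480 (87.1%) among the first 500 and 1474 of 1977 (74.6%) among the first 2000. The pooled signal derives from the same 3 replicates, so a high share at the top follows in part from the rule. The pooled signal of the shared peaks had a median of 281 and ran from 113 to 4103, against a median of 146 for the other optimal peaks. The called intervals were also narrower, with 56.4% under 400 bp wide against 14.9% of the others.

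**Figure D1:**
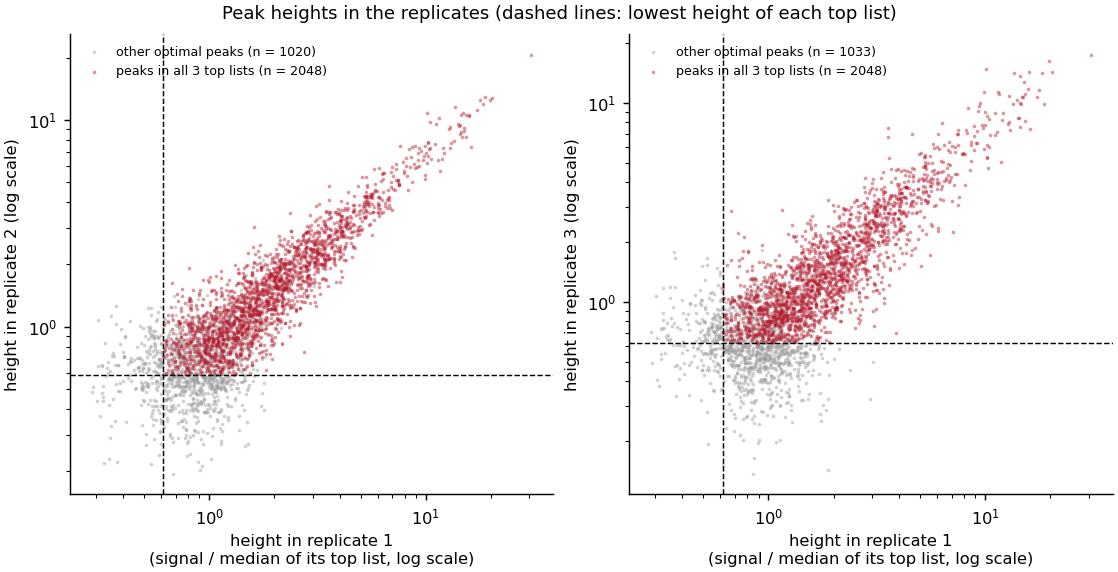
Height of each optimal peak in replicate 1 (x axis) against replicate 2 (left) and replicate 3 (right), on log axes, for peaks with a summit within 100 bp in both whole lists. Peaks of all 3 top lists are red, other optimal peaks grey, and dashed lines mark the lowest height in each top list; the red peaks fill the upper right, up to 30.7 in replicate 1, and many grey peaks lie beside a dashed line.

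The bounds of the set are gradual. The 4 members closest to leaving it ranked 4502, 4497, 4491 and 4488 in their worst replicate, and the 4 optimal peaks closest to entering it ranked 4513, 4521, 4524 and 4525. The last of the members inside had heights of 0.615, 0.717 and 1.22 in replicates 1, 2 and 3, while the first one outside, in an intron of CG42741, had heights of 1.46 in replicate 1 and 1.05 in replicate 3 and fell short in replicate 2.

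Choosing peaks on 2 replicates and looking them up in the third showed which replicate limited the set. Of 2308 peaks chosen on replicates 1 and 3, 88.7% (exact 95% interval 87.4 to 90.0%) were in the top list of replicate 2, against 70.9% of the optimal peaks not so chosen. Of 2477 chosen on replicates 1 and 2, 82.7% (81.1 to 84.2%) were in the top list of replicate 3, against 71.9%. Of 2888 chosen on replicates 2 and 3, only 70.9% (69.2 to 72.6%) were in the top list of replicate 1, against 55.3%. Replicate 1 was also the one that lacked such summits altogether: its whole list of 30000 held 73.4% of the peaks chosen on the other two, whereas the whole lists of replicates 2 and 3 held 98.0% and 97.8% in the same check. These shares come from lists made with all replicates and are descriptions of them.

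The highest peak of all lay 85 bp upstream of the start site of CG14100 (FBgn0036889, chr3L:19590413-19590836, dm6). Its heights were 30.7, 20.6 and 17.4 in replicates 1, 2 and 3, rank 1 in every replicate, with a pooled signal of 4103. Next by lowest height among promoters came Ugalt, a UDP-galactose transporter (chrX:2703683-2704100), with heights of 19.7, 12.5 and 16.4. CG1888 followed with 18.3, 12 and 14.2. All of these heights were over 10 times the middle of the top list. Chro (Chromator), a chromodomain protein found at polytene interbands, had heights of 17.7, 12.5 and 11.6 at a summit 87 bp inside the gene, with a start site of Ssl1 also in reach. PNPase, a mitochondrial RNA-processing enzyme, had 15.9, 10.6 and 14.4. larp, an RNA-binding La-related protein, had 15.3, 10.6 and 11.1. Replicate 1 was the highest of the 3 at each of these genes.

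Of the 10 highest promoters, 3 were near mitochondrial ribosomal protein genes, a group whose counts are given with the gene lists below. One summit lay between Art3, an arginine methyltransferase, and mRpS10, with heights of 14.8, 10.8 and 10.8. Another lay between CenG1A and mRpS23, with 15.8, 10.5 and 11.7. The third stood at mRpL41 with 11.5, 10.2 and 11.3, the most even of the 10, with a CV of 6.36%. Tcs5 and CHMP2B, which share a promoter region, completed the 10 with 18.7, 12.9 and 9.94. A summit within 500 bp of start sites of several genes cannot be given to one of them.

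Inside introns, the highest peak (chr2L:480870-481298) lay in ush, a cofactor of GATA factors, 1401 bp upstream of a start site of cbt, a zinc-finger factor of early growth responses. Its heights were 20.3, 12.8 and 14.3, second only to CG14100 by lowest height. The next was in Lk6, a kinase that phosphorylates the cap-binding protein eIF4E, with 13.6, 11.6 and 14.2. CG32486 held one with 17.3, 11.1 and 10.7, and CG11050 one with 10.1, 10.8 and 14.8, where replicate 1 was the lowest of the 3. Eip75B, a nuclear receptor of the early ecdysone response, held an intronic peak (chr3L:18011691-18012094) 12085 bp from the nearest start site with heights of 12.8, 9.29 and 10.8. Introns of CG32772, CG4496 and HmgZ completed the 8, with lowest heights of 9.11, 8.46 and 8.11. The strongest intronic peaks thus ranked with the strongest promoters, between 3 and 52 across replicates for the first 4.

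Between genes the highest peak lay 11922 bp from the nearest start site, that of CG13323, with heights of 14.4, 10.6 and 13.6. A pair lay about CG31668 and COX7AL2 on chr2L, with 14.1, 9.61 and 10.4 at chr2L:2202191-2202610 and 7.92, 5.54 and 5.57 at chr2L:2199175-2199513. The peak nearest CG43245 had 12.9, 7.35 and 8.01. One peak (chr3R:29763175-29763526) stood 2635 bp upstream of a start site of kay, the fly Fos and a partner in AP-1, with heights of 7.29, 5.80 and 6.04 and ranks of 94, 81 and 79. The list of 8 ended with summits near CG13898, CG17896 and ds, an atypical cadherin of the Fat pathway, whose lowest heights were 5.0, 4.86 and 4.25. Intergenic peaks were lower than promoter peaks as a class, with a median pooled signal of 239 against 340, and intronic ones lay between them at 270.

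Replicates agreed closely at some peaks and not at others. Among the 418 shared peaks within the first 500 by pooled signal, the CV ran from 1.91% to 56.2% with a median of 21.6%. It was smallest at Fkbp14, a prolyl isomerase of the secretory pathway, with heights of 5.79, 5.78 and 5.98. An intronic peak of brat (2.54, 2.61 and 2.69), one of Pgant9 (2.89, 3.04 and 2.85), CG13082 (3.39, 3.15 and 3.32) and Lpin, the fly lipin (5.27, 5.30 and 4.90), came next. It was largest at the promoter shared by Ide and RhoBTB, with 5.04, 2.92 and 1.51. Xe7 with Atg17 (5.54, 4.22 and 1.72), pre-mod(mdg4)-E (7.07, 5.35 and 2.25), Adf1 (16.1, 7.44 and 7.37) and CG11247 with Polr2H (6.07, 3.43 and 2.37) followed. At all 5 of the uneven peaks replicate 1 was the highest and replicate 3 the lowest. Heights ran higher in replicate 1 over the shared peaks as a whole (medians of 1.75, 1.37 and 1.32). The CV includes that common offset and is not a measure of disagreement at single peaks alone.

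Where the shared high peaks lay relative to genes was not used to choose them. A summit within 500 bp of a transcription start site was counted as a promoter summit, and the remaining summits were placed by annotation. Promoters held 691 shared peaks (33.7%, exact 95% interval 31.7 to 35.8%) against 45.9% of the 2434 other optimal peaks, a difference of -12.1 percentage points (Fisher's exact test, Benjamini-Hochberg adjusted over 7 places, p = 1.27e-15). Introns held 901 (44.0%) against 38.3% (adjusted Fisher's exact p = 0.000321) and intergenic sequence 419 (20.5%) against 13.8% (adjusted Fisher's exact p = 1.62e-08). Coding exons held 3, 5′ UTRs 7, 3′ UTRs 7 and other exons 20, and none of these places passed the test. Neighbouring peaks share fragments and chromatin, so each of these p-values is a statement about the lists, not about animals.

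The direction of this difference depended on replicate 1. Peaks in the top lists of replicates 2 and 3 but not 1 had the highest promoter share of any combination, 63.2% of 840 (59.9 to 66.5%). Those of replicate 3 alone had 58.8% of 342, and those of replicate 2 alone 49.6% of 272. The partial combinations with replicate 1 were lower, at 27.3% of 429 for replicates 1 and 2, 21.5% of 260 for replicates 1 and 3, and 17.1% of 193 for replicate 1 alone. The shared high peaks, at 33.7%, lay between: 29.5 points below the peaks of replicates 2 and 3 only (adjusted Fisher's exact p = 6.28e-47), but 12.2 points above those of replicates 1 and 3 only (p = 0.000396) and 6.47 points above those of replicates 1 and 2 only, which did not pass (p = 0.0644). Chosen on replicates 2 and 3 without replicate 1, the kept peaks had more promoter summits than the rest, by 5.61 points (adjusted Fisher's exact p = 0.00178). Chosen without replicate 2 or without replicate 3, they had fewer, by -16.4 and -17.2 points. With top lists of 2252 peaks the difference was -2.66 points and did not pass (adjusted Fisher's exact p = 0.469).

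Within classes of similar pooled signal the promoter share was lower among shared peaks throughout. From the lowest to the highest of 4 equal classes of the optimal list it was 15.4, 22.9, 28.2 and 43.6% for shared peaks and 33.8, 46.2, 62.5 and 73.4% for the others. The difference passed Fisher's exact test in the upper 3 classes (adjusted p = 4.40e-14, 3.08e-28 and 1.11e-14) and missed it in the lowest (p = 0.0531), which held 39 shared peaks. In both sets the promoter share rose with signal. Intergenic shares went the other way, from 38.5% to 14.7% among shared peaks. The other peaks were not of 1 kind across these classes. Those of replicates 2 and 3 only, with 63.2% at promoters, had a median pooled signal of 213. Those of replicates 1 and 2 only and of replicates 1 and 3 only had medians of 139 and 144. The classes were not split by combination, so the dependence on replicate 1 was not tested within them.

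**Figure D2:**
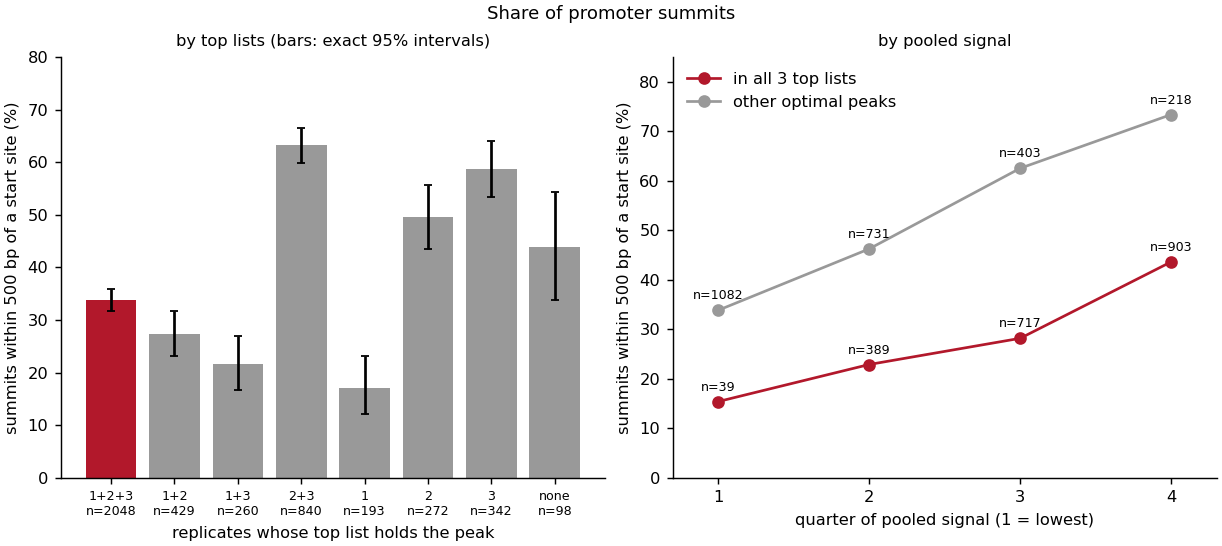
Left, share of summits within 500 bp of a start site (y axis, %) by the combination of top lists that holds the peak (x axis), with exact 95% intervals; right, the same share by class of pooled signal from lowest (1) to highest (4), for peaks in all 3 top lists (red) and other optimal peaks (grey). On the left, combinations with replicate 1 stand at 17.1 to 33.7% and those without it at 43.9 to 63.2%; on the right, red lies under grey in every class.

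At promoters, the shared peaks lay slightly farther from the start site. Of the 691, 572 (82.8%) were upstream, at a median position of -145 bp, and 22.3% were within 100 bp of the start. Among the 1116 other promoter peaks 81.0% were upstream, with a median of -107 bp and 37.2% within 100 bp. Of the 626 shared promoter peaks near a coding gene, 191 (30.5%) had start sites of at least 2 coding genes in reach, against 40.2% of the others. Chosen without replicate 1, the 1222 promoter peaks had a median of -123 bp, 30.8% within 100 bp and 38.2% with at least 2 coding genes in reach, nearer to the values of the others. No test was made of these positions.

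By chromosome arm, the X held 447 shared peaks (21.8%, 20.1 to 23.7%) against 18.5% of the others, a difference of 3.34 points (Fisher's exact test adjusted over 6 arms, p = 0.0333). The other arms did not pass, with 375 on 2L, 340 on 2R, 437 on 3L, 444 on 3R and 5 on 4. The X difference was -2.82 points without replicate 1 (adjusted Fisher's exact p = 0.157) and 2.01 without replicate 3 (adjusted p = 0.296). It did not pass in either case, and it was 6.35 without replicate 2.

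Summits of the shared high peaks were rich in A and T. Within 50 bp of the summit the median G and C content was 30.7% (interquartile range 26.7 to 34.7%), against 43.6% in windows centred 500 bp away. The summit was poorer in G and C than its own flanks at 1825 of the 2048 (89.1%). Other optimal peaks had the same dip, with medians of 31.7 and 44.6% and a poorer summit at 83.1%. In 20 bp steps the mean at shared promoter peaks was 30.8% just left of the summit and at the shared peaks elsewhere 30.6%, rising to 41.9% and 44.5% at 130 bp to the left. In the other optimal peaks the bin just left of the summit had 34.0% at promoters and 31.5% elsewhere. At 130 bp to the left these peaks had 38.8% and 41.3%. Taken from the mean of the bins at 510 bp on both sides, the depth of the dip was 13.8 points at shared promoter peaks and 12.1 at shared peaks elsewhere, against 11.5 and 11.7 points in the other peaks. Chosen without replicate 1, the peaks had a median of 30.7% at the summit and 44.1% in the flanks, with a poorer summit at 87.7%.

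**Figure D3:**
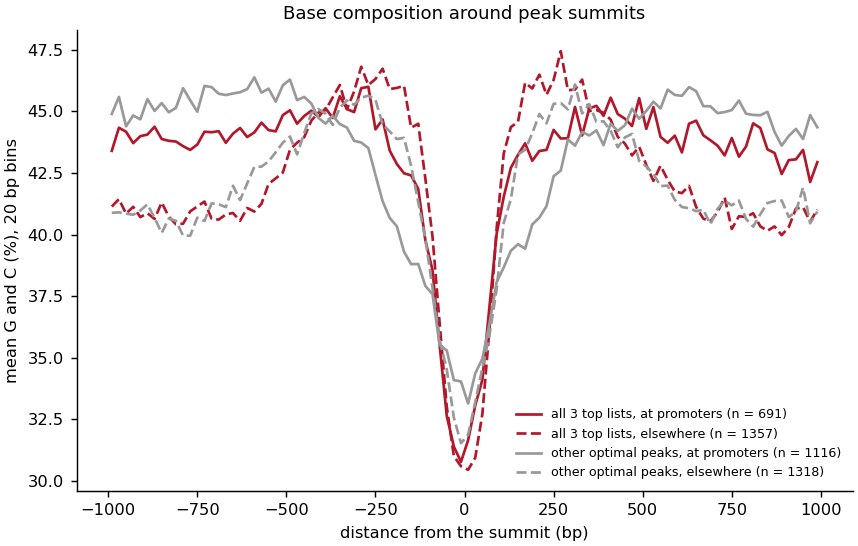
Mean G and C content (y axis, %, 20 bp bins) against distance from the summit (x axis, bp) for peaks of all 3 top lists (red) and other optimal peaks (grey), at promoters (solid) and elsewhere (dashed). All lines dip at the summit, the red ones to 30.8 and 30.6%, and the line of other promoter peaks (solid grey) has the highest value at the summit.

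Among 14 words searched on either strand within 100 bp of the summit, 1 differed. The DRE, TATCGATA, stood at 26 shared peaks (1.27%) against 85 others (3.49%), a difference of -2.22 points (Fisher's exact test adjusted over the words, p = 1.45e-05). At promoters the shares were 3.33% and 6.72% (adjusted Fisher's exact p = 0.0257), and elsewhere 0.221% and 0.759%, which did not pass (p = 0.566). Of all 23581 annotated start sites, 5.45% had the word within 100 bp. Without replicate 1 the difference was -0.051 points and did not pass Fisher's exact test. An ETS word, CCGGAAG, was rare in both sets, at 0.537% of shared peaks and 0.493% of others (adjusted Fisher's exact p = 0.949). In windows centred 500 bp to the left and right of the shared summits it stood at 0.977% and 0.781%. Its letters rearranged, CGAGCAG, stood at 1.22% of shared peaks and at 2.69% and 2.15% of those flanking windows. A lower share at the summit was thus not particular to the ETS word. The AP-1 word TGANTCA stood at 4.88% of shared peaks and 5.46% of others (adjusted Fisher's exact p = 0.731). The motif 1 word GGTCACACT of the promoter factor M1BP stood at 0.537% and 1.03% (adjusted Fisher's exact p = 0.428). AGGTCA, a nuclear receptor half-site, stood at 3.22% and 4.72% (adjusted Fisher's exact p = 0.0828). The A-run AAAAAA was in 50.3% of the shared windows, and in 34.3% and 33.2% of windows 500 bp to the left and right. It did not differ from the others at the threshold (48.5%, adjusted Fisher's exact p = 0.678). For all but the DRE, an adjusted p above 0.05 does not show that the sets were alike.

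A search of every word of 6 letters, with reverse complements counted as 1, found 7 more frequent in shared peaks (0.337% of the words) and 10 less frequent (0.481%), by Fisher's exact test adjusted over all words. GTGCAC led the first, in 10.5% of shared peaks and 6.16% of others (adjusted Fisher's exact p = 0.000132), and 3.91% of all start-site windows. ACAGTG (22.6 against 17.5%), CAGTGC (20.1 against 15.5%) and AGTGCA (22.9 against 18.2%) overlap it and one another and so count the same letters in part. ACATTA (19.1 against 14.7%) and AGCCCC (4.2 against 2.26%) do not. ATCGAT, the core of the DRE, led the words that were less frequent, in 5.71% against 11.1% (adjusted Fisher's exact p = 3.11e-07), followed by TATCGA (9.42 against 14.4%), AAAGCG (7.42 against 11.3%), CAATCG (5.22 against 8.59%), CAACAC (8.54 against 12.4%) and CGATAG (5.37 against 8.50%). Except for AAAGCG and CAACAC, these overlap the core in part. Outside promoters no word passed in either direction, with 48 higher and 72 lower at an unadjusted Fisher's exact p under 0.05. Without replicate 1, a single word was more frequent and none less frequent (61 and 79 unadjusted).

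The 2 leading words had different positions. GTGCAC stood beside the summit, not on it: 8.30% of shared peaks had it between 50 and 100 bp away and 2.73% within 50 bp, against 4.31% and 2.05% of the other peaks. Farther out the sets were close, at 4.59 and 4.11% between 100 and 150 bp and 2.25 and 2.71% between 150 and 200 bp. The share at 50 to 100 bp was 9.43% in shared peaks away from promoters and 6.08% at promoters, against 5.24% and 3.23% in the others. It was 6.53% in peaks of replicates 1 and 2 only, 6.15% in those of replicates 1 and 3 only and 4.29% in those of replicates 2 and 3 only. The bands were drawn after the word was seen and carry no test. Counted within 50 bp, the difference between the sets was 0.559 points and did not pass (adjusted Fisher's exact p = 0.557). Within 100 bp it did not pass at promoters (3.24 points, adjusted Fisher's exact p = 0.211) or outside them (4.43 points, adjusted p = 0.242). Without replicate 1 it did not pass either (2.84 points, adjusted Fisher's exact p = 0.264). The difference outside promoters was as large as the 4.38 points over all places, in fewer peaks. ATCGAT stood at 5.88% of the other peaks within 50 bp and 6.41% from 50 to 100 bp, against 2.64% and 3.47% of shared peaks. From 100 to 150 bp the shares were 5.38% and 4.05%. At other promoter peaks alone these shares were 8.96 and 11.4%, against 3.47 and 6.51% at shared promoter peaks.

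**Figure D4:**
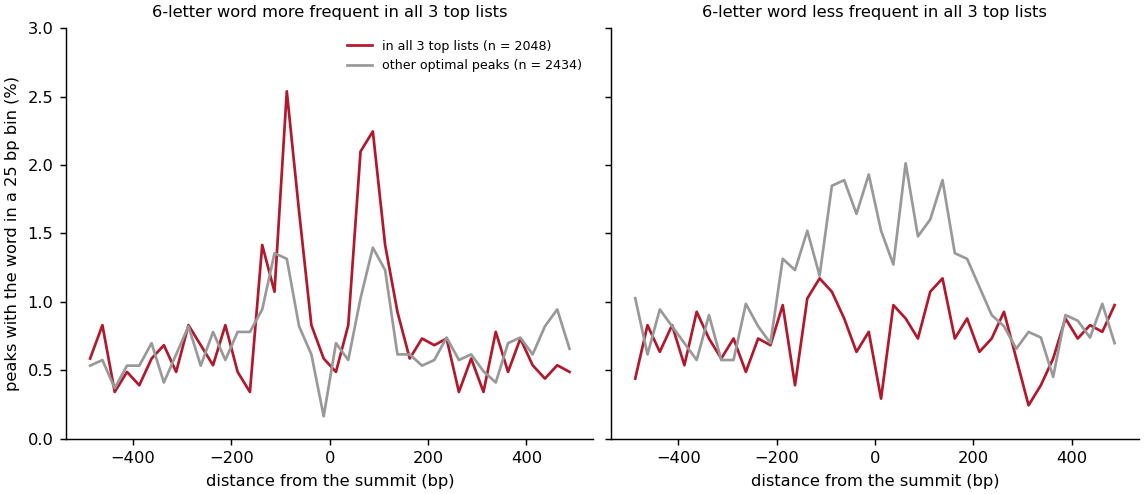
Share of peaks (y axis, %) with a 6-letter word centred in each 25 bp bin at a given distance from the summit (x axis, bp), for peaks of all 3 top lists (red, n = 2048) and other optimal peaks (grey, n = 2434). The word that was more frequent in shared peaks (left) rises on both sides of the summit, to 2.54% at -87.5 bp and 2.25% at 87.5 bp. The word that was less frequent (right) rises about the summit in the other peaks, to 2.01% at 62.5 bp. In the shared ones it reaches 1.17%, at -112.5 and 137.5 bp.

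Of 13945 protein-coding genes, 783 (5.61%) had a shared high peak within 500 bp of a start site, and 2118 (15.2%) any optimal peak. Shared high peaks thus accounted for 37.0% of the coding genes with a promoter peak, and gene lists are read against that share. A peak of replicates 2 and 3 only stood at 755, or 35.6% of those with a promoter peak, and a gene can have peaks of both kinds. Chosen without replicate 1, the peaks stood at 1511 coding genes (10.8%), or 71.3% of those with a promoter peak. A gene is called bound here when an optimal summit lies within 500 bp of one of its start sites, and counts below are for that window unless another is given. Some of these summits also lie within 500 bp of a start site of another coding gene, which is named for the genes below that are given with their heights. The lists were chosen with earlier results of these data known and carry no test. Among non-coding genes, 89 of 3261 classed as ncRNA, 4 of 290 tRNA genes and 0 of 99 rRNA genes had one. The highest of these were at lncRNA:CR44463, whose summit is that of mRpL41, asRNA:CR45928, which shares that of eIF6, lncRNA:CR31044 (heights 8.35, 7.23 and 9.45), lncRNA:CR46102 (7.00, 5.94 and 6.11) and lncRNA:CR44619 (11.6, 5.67 and 11.1).

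EGFR and Ras-MAPK genes had a shared high peak at 5 of 28 and any optimal peak at 10, and the same 5 of 10 without replicate 1. Within 1000 bp the 5 became 7, and within 250 bp 3. Shc, an adaptor of receptor tyrosine kinases, had heights of 14.5, 8.79 and 7.57 at the promoter it shares with Atat. spi (Spitz), the main activating ligand, had 4.83, 4.77 and 2.83. cic (Capicua), the repressor relieved by the pathway, had 2.81, 1.92 and 1.41. Krn, another ligand, and aos (Argos), a secreted inhibitor, also had one.

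In the ecdysone response list 4 of 28 genes had a shared high peak and 10 any optimal peak (7 of the 10 without replicate 1, and 2 within 250 bp). Sox14, an ecdysone-induced transcription factor, had heights of 14.2, 9.33 and 8.42. hid, an activator of cell death in doomed larval tissues, had 4.88, 2.94 and 3.69, and was the single bound gene of 17 in the cell death list (0 with a shared high peak within 250 bp and 2 within 1000 bp). E23, an ABC transporter induced by the hormone, had 3.35, 3.25 and 2.66. The nuclear receptor Hr3 was the fourth. Of these, Sox14 ranked 25, 23 and 39 in replicates 1, 2 and 3.

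Stress and signalling factors had a shared high peak at some of the genes bound. Of 15 stress bZIP factors 3 had one, 9 any optimal peak and 7 one without replicate 1: REPTOR, which acts when TORC1 is off (3.66, 3.41 and 4.66), Irbp18 with APP-BP1 (4.07, 3.42 and 2.54) and Atf3 (3.37, 1.98 and 2.06). In the JNK and AP-1 list, 7 of 20 had an optimal peak, but only Mkk4, a kinase that activates JNK, had one high in all 3 replicates (8.89, 7.52 and 5.83), at a summit shared with SLIRP2. Without replicate 1 it was 4, and within 1000 bp 2 genes had a shared high peak. The ETS family list had 2 of 8 genes with an optimal peak and 0 with a shared high one, but 2 genes had a shared high peak within 1000 bp and 1 had a peak within 500 bp chosen without replicate 1. Ets21C itself (FBgn0005660, chr2L:544925-552923) had no optimal peak within 5 kb. Of the small heat shock list, Hsp27 had 10.5, 9.77 and 5.99 and Hsc70-4 with tefu 3.07, 2.54 and 0.754. These were 2 of the 5 genes of that list with an optimal peak, and without replicate 1 it was 4.

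Several genes of chromatin proteins had one. Of 17 insulator and interband genes 5 had a shared high peak and 9 any optimal peak, all 9 of them without replicate 1. The 5 were 55.6% of those bound, against 37.0% of all coding genes bound. A peak of replicates 2 and 3 only stood at 6 of the 9 (66.7%, against 35.6% of all coding genes bound), so both kinds of peak were frequent there. Besides Chro these were Trl, the GAGA factor (2.25, 2.00 and 2.11), row (3.75, 2.82 and 1.73), the histone kinase JIL-1 and the boundary factor BEAF-32. Of 25 Polycomb and trithorax genes 3 had one of 10 bound (8 without replicate 1, and 1 within 250 bp): ph-p (14.7, 8.26 and 9.87), its neighbour ph-d (1.29, 0.678 and 1.32) and the histone methyltransferase E(z) with Cnep1r2 (2.63, 2.14 and 0.813). ph-p and ph-d are near-identical copies, and how reads shared between them were placed is not given in the sources used here.

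Of 93 cytosolic ribosomal protein genes 44 had an optimal peak, but only 2 a shared high one, RpL34b with CG8132 (3.8, 3.57 and 2.55) and RpS3A (1.15, 1.06 and 1.23), or 4.55% of those bound against 37.0% of all coding genes bound. A peak of replicates 2 and 3 only stood at 20 of the 44 (45.5%, against 35.6% of all coding genes bound). Without replicate 1 the 2 became 22 of 44, against 71.3% of all coding genes bound. Of 73 mitochondrial ribosomal protein genes 24 had an optimal peak and 9 a shared high one (37.5% of those bound, close to the share over all coding genes, and 17 without replicate 1): mRpS10, mRpS23, mRpL41, mRpL23, mRpL24, mRpS2, mRpL20, mRpL37 and mRpL11. Translation factors had 1 of 11 bound, eIF6 (12, 7.34 and 8.20), and 7 without replicate 1, or 2 within 1000 bp. Respiratory chain genes had 3 of 15 (12 without replicate 1, and 5 within 1000 bp), ND-SGDH, COX7B and ATPsynbeta, at summits shared with RhoGAP68F, Sec3 and CG11076, with lowest heights of 1.33, 0.773 and 0.641. The proteasome had 1 of 4 (3 without replicate 1, and 0 within 250 bp), Rpn5 with Hat1 (3.69, 2.55 and 2.53), and aminoacyl-tRNA synthetases 3 of 6 (all 6 without replicate 1), SerRS with CG17260 (4.05, 3.42 and 2.32), IleRS with Hem and ArgRS-m with CG17816.

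Growth and structure lists gave mixed counts. Of the cell cycle regulators 1 of 6 bound, Dp, the partner of E2F, had a shared high peak (3.63, 2.63 and 2.92), and 5 without replicate 1. Within 1000 bp it was 2 genes. DNA replication genes had 3 of 7 bound (5 without replicate 1), RnrS with CG34231 (2.5, 2.21 and 1.32), Mcm2 with RPA1 (3.04, 1.94 and 0.900) and Psf1 with Sac1 (1.28, 0.661 and 0.859). The Hippo list had 2 of 8 (6 without replicate 1, 1 within 250 bp and 6 within 1000 bp), app (2.21, 2.04 and 2.12), a palmitoyltransferase, and the cadherin ft (1.72, 0.819 and 1.25). The autophagy and TORC1 list had 2 of 6 (5 without replicate 1, and 1 within 250 bp), REPTOR and Atg17. The cytoskeleton list had 2 of 8 (3 without replicate 1, and 0 within 250 bp), Moe (1.08, 1.25 and 1.28) and Act5C (0.740, 1.19 and 1.22). Among genes of differentiated tissues, elav, an RNA-binding protein of neurons, was the single bound gene of 17 neuronal ones (4.21, 3.32 and 4.0), with none within 250 bp. In the muscle list Msp300, a nesprin (9.15, 6.43 and 6.29), and sls, the fly titin (1.11, 0.978 and 0.854), were 2 of 3, none within 250 bp. Without replicate 1 the neuronal and muscle counts were unchanged, at 1 and 2 genes. Cytochrome P450 genes had 4 of 6 (1 within 250 bp), Cyp6u1 with Ufsp1 (3.22, 3.94 and 3.11), Cyp310a1 (3.10, 2.60 and 2.73), Cyp6v1 and Cyp6a2. The 4 were 66.7% of those bound, against 37.0% of all coding genes bound. Without replicate 1 it was again 4 of 6, against 71.3% of all coding genes bound. None of 179 odorant, gustatory and ionotropic receptor genes and none of 95 Cpr and Tweedle cuticle genes had an optimal peak within 500 bp of a start site, whereas within 1000 bp 1 and 2 genes, respectively, had a shared high one.

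**Figure D5:**
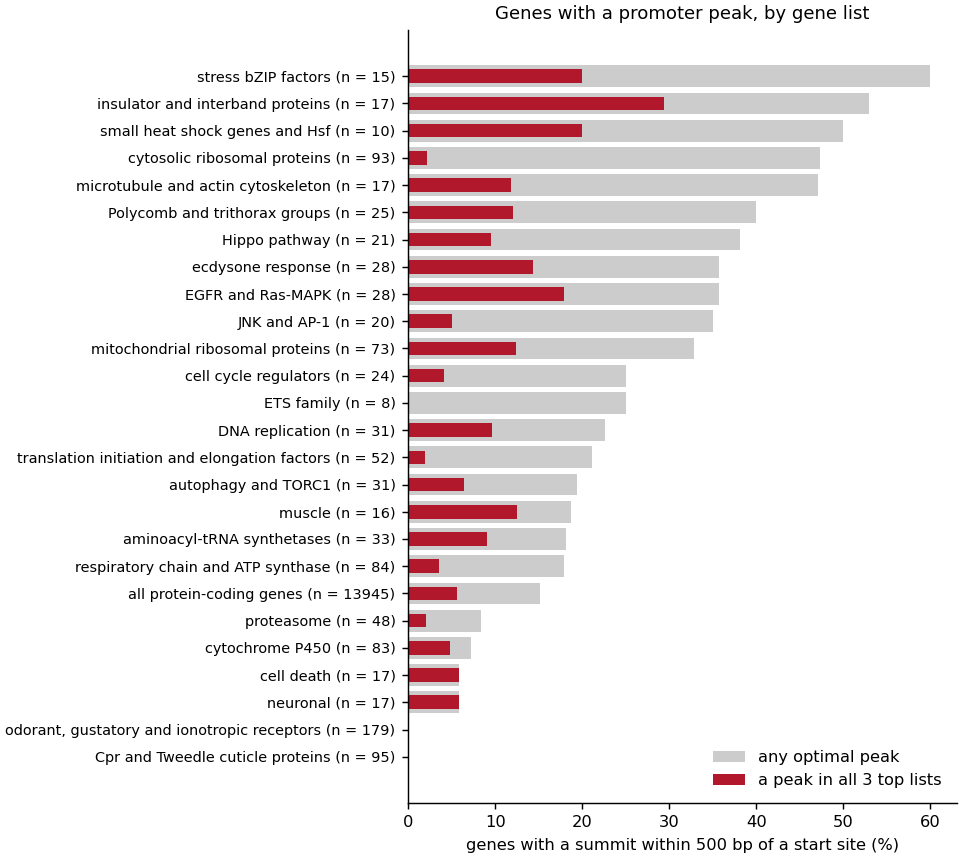
Share of the genes of each list (x axis, %) with a summit within 500 bp of a start site, for any optimal peak (grey bars) and for a peak in all 3 top lists (narrow red bars), beside all protein-coding genes (15.2 and 5.61%). Cytosolic ribosomal protein genes show a long grey bar (47.3%) with a short red one (2.15%), insulator and interband genes a long bar of both kinds (52.9 and 29.4%).

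Some of the shared high peaks stood close together. Another shared high peak lay within 2 kb of 551 (26.9%), and any other optimal peak within 2 kb of 40.1%, against 32.9% of the other optimal peaks. The 901 intronic ones lay in introns of 525 coding genes. The host of an intronic peak had a median length of 32327 bp, against 29891 bp for hosts of the other intronic peaks. All coding genes had a median of 2166 bp. That contrast follows in part from the placing, since an intronic summit lies over 500 bp from any start site. Counting all places, 106 genes held at least 3 shared high peaks and 26 at least 5. The genes below were named because they held the most. Over all optimal peaks on the arms 45.7% were shared high peaks, and 49.1% of the intronic ones. The most were in kirre (FBgn0028369), an adhesion protein of muscle fusion, with 12 of its 18 optimal peaks along 394149 bp. Raf, the kinase between Ras and MEK, held 9 of 11 in 48405 bp, with lowest heights from 0.798 to 4.57. CG1677 held 9 of 15. Mnt, the antagonist of Myc, held 8 of 15 in 29872 bp, and brat, a repressor of translation, 8 of 9 in 45943 bp. sbb, Tet and heca also held 8 each, of 15, 10 and 9 optimal peaks. Per 10 kb of gene the density was 0.304 in kirre, 1.86 in Raf, 2.68 in Mnt and 1.74 in brat, lowest in kirre, the longest of them. Chosen without replicate 1, 27.0% of peaks had another such peak within 2 kb, intronic hosts had a median of 29891 bp, and 138 genes held at least 3.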

How the data were processed

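ChIP-seq peak lists of 3 biological replicates of 1 group were used as deposited. Per the labels, DNA was sheared by sonication to 200 to 800 bp. Peak heights are the signal values that the authors deposited with each peak, and each list has its own scale. The sources used here name no aligner, peak caller or reproducibility settings. As the lists hold no reads, depth is unknown. The lists were compared by summit position on dm6, with Ensembl release 115 (18164 genes on the main arms, transposable elements left out) and the RefSeq Release 6 sequence, which is the same assembly. No peak ran past the end of its arm, and coordinates are 1-based.

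Members, gene lists, words and tests were chosen with earlier results of these data known. Places, arms and words of members and other optimal peaks were compared by two-sided Fisher's exact tests with Benjamini-Hochberg adjustment (threshold 0.05) in Python 3.11.15 with scipy 1.17.1. Intervals are exact (Clopper-Pearson, 95%) and cover counting error only. Listed symbols without a protein-coding match were left out. Named peaks are those of highest lowest-height by place, of smallest and largest CV, at the bounds of the set, and up to 3 per gene list; words are the 6 of lowest adjusted p in each direction. Alternatives covered each replicate left out, the summit distance, top list length, promoter and word windows, build, comparison set and signal class. The test of 6-letter words was tested on simulated data. No groups were compared, so no pairing was made.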

Additional observations from a re-analysis of the deposited data

Results flagged for a closer look

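Outside the nuclear arms, 18 of the 23 optimal peaks on the mitochondrial genome were also in the top lists of all 3 replicates. The pooled signals of all 23 lay between 222 and 3321 with a median of 1001. These peaks come from data outside the main measurement, since the mitochondrial genome was left out of the counts above. No control library was analysed here. No explanation was tested.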

How the results depend on the processing

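With each replicate left out in turn, the shared peaks chosen on the remaining replicates differed from the other optimal peaks by -17.2 to 5.61 percentage points in promoters, -3.97 to 8.70 in introns, -0.889 to 8.86 in intergenic sequence, -2.82 to 6.35 on the X and -2.65 to -0.051 for the DRE, and 1 to 17 words of 6 letters were more frequent and 0 to 52 less frequent. The reversals came without replicate 1, and the cause was not tested. Against peaks of replicates 1 and 3 only, the differences were 12.2 (promoters), -6.78 (introns) and -4.54 (intergenic). Against peaks of replicates 1 and 2 only they were 6.47, -4.72 and -2.15. Both comparisons, that with peaks of replicates 2 and 3 only, and the signal classes were added after seeing the data. With top lists of 2252 peaks, 1181 peaks qualified, with differences of -2.66, 1.81 and 0.436 points, none of which passed, and 4 words were higher and 2 lower. With top lists of 9010 it was 30 and 89. In the lowest class of signal the promoter difference was -18.4 and the intron difference 1.05, neither passing. The DRE did not pass within 50 bp of the summit (-0.77) or outside promoters (-0.538). The counts of words higher and lower were 0 and 4 against peaks in exactly 2 top lists (76 and 94 at an unadjusted Fisher's exact p under 0.05), 3 and 6 among the optimal peaks above the median signal, 0 and 4 within 50 bp (105 and 224 unadjusted), 1 and 5 at promoters and 0 and 0 elsewhere. Against peaks of replicates 2 and 3 only, 4 were higher. The number of shared peaks was 1569 and 2180 at summit distances of 50 and 200 bp, 2074 on dm3 and 2066 with all sequences. Promoter windows of 250 and 1000 bp changed no call of place; counts of genes in short lists moved, as given with each list. The share of coding genes with a shared peak was 4.07% and 7.00% at these windows, and 10.8% without replicate 1, added after seeing the data. No paired analysis was possible because there is 1 group. Depth is unknown, and an exact interval covers counting error only.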
